A study of Rattus norvegicus with 22 samples.

Results

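Glucose handling by the liver was followed through 6 genes, Slc2a2, Gckr, Pfkl, Pfkfb1, Pfkfb3 and Pklr, taken by symbol from the 14971 genes of a rat liver RNA sequencing table. They stand for the entry of glucose into the hepatocyte, for the protein that restrains glucokinase, and for the steps at which the liver sets the pace of glycolysis. All 6 passed the filter for tests, a mean over all 22 libraries of 10 or more, as did 12424 genes in total. Values are normalised counts, in which the reads of a gene were divided by a factor for the depth of the library.

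The study crossed a nerve lesion with an inhaled pollutant. Rats were bought at 10 to 11 weeks of age, kept on standard chow, and operated on at 12 weeks, either with sham surgery or with hepatic vagotomy, in which the branch of the vagus nerve that serves the liver is severed. After 5 to 6 days they breathed clean air or 1 ppm ozone, a reactive gas that irritates the airways, in sessions of 4 hours (1 day or 2 days), and they were killed within 2 hours of the last exposure. The 4 groups are named sham air (Sham_Air, 5 rats), vagotomised air (HepV_Air, 6 rats), sham ozone (Sham_O3, 6 rats) and vagotomised ozone (HepV_O3, 5 rats). Strain, sex and the number of exposure days of each rat are not given in the sources used here, and the completeness of the nerve section could not be read from these counts. The liver pieces weighed 10 to 20 mg.

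Libraries held 14098863 to 21141337 reads assigned to genes. The tissue label was checked with 12 hepatocyte markers, all present, whose summed normalised count lay between 2538860 and 3497580 in every library. Of these 12, 3 were called higher in sham ozone than in sham air, and 1 higher and 1 lower in vagotomised ozone than in vagotomised air, by the test described below (over all genes, 14.6% were higher and 13.8% lower in sham rats and 11.4% and 9.63% in vagotomised rats). Of the marker lists for muscle, adipocytes and pancreas, 1 gene each was in the table, and that of adipocytes was higher in sham ozone. Markers of Kupffer cells, the resident macrophages of the liver, summed to 5191 to 10880. Of the 10 Kupffer cell markers 2 were lower in sham ozone than in sham air, and of the 10 stellate cell markers 2 were lower and 1 higher, with no call of either list in vagotomised rats. There was 1 of 8 endothelial markers in the table that was higher in vagotomised ozone, and 1 of 6 of other leukocytes that was lower in sham ozone. Their part in the results below was not tested, and in bulk tissue fewer cells of a type and less RNA per cell cannot be told apart. There were 4 libraries with a normalised count of 5.8S ribosomal RNA under 200, against 342 to 3775 in the other 18: libraries 1 and 5 of vagotomised air, 3 of sham ozone and 1 of vagotomised ozone. For the 6 genes, and for other named genes whose call ends without these 4, values are given with and without them.

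Hepatocytes take up glucose through GLUT2, a transporter of high capacity that lets glucose pass in both directions, and trap it by phosphorylation with glucokinase. In the fasted state glucokinase is held inactive in the nucleus by its regulatory protein. Phosphofructokinase then commits the sugar to glycolysis and is switched on by fructose 2,6-bisphosphate, which bifunctional enzymes make and break down, and pyruvate kinase closes the pathway. Feeding, insulin and the sugar-sensing factor ChREBP raise liver pyruvate kinase, and glucagon and adrenaline act the other way.

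Ozone changed 5 of the 6 genes in sham rats. Pklr, which encodes the pyruvate kinase of liver and red blood cells, fell to 0.430-fold, while Pfkfb3, Pfkl, Pfkfb1 and Slc2a2 rose 1.64-fold, 1.62-fold, 1.52-fold and 1.28-fold. Of the 6 genes 4 were therefore called higher and 1 lower at a Benjamini-Hochberg adjusted p under 0.05 in limma, where 14.6% of all tested genes were called higher and 13.8% lower. In vagotomised rats Pklr fell to 0.537-fold, and Pfkfb3, Pfkfb1 and Slc2a2 rose 1.94-fold, 1.40-fold and 1.26-fold, so that 3 of 6 were higher and 1 lower, against 11.4% and 9.63% of all genes. Gckr, the gene of the glucokinase regulatory protein, was not called in either set of rats. All folds were computed on log2(normalised count + 1), and each p refers to the spread between rats.

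**Figure D1:**
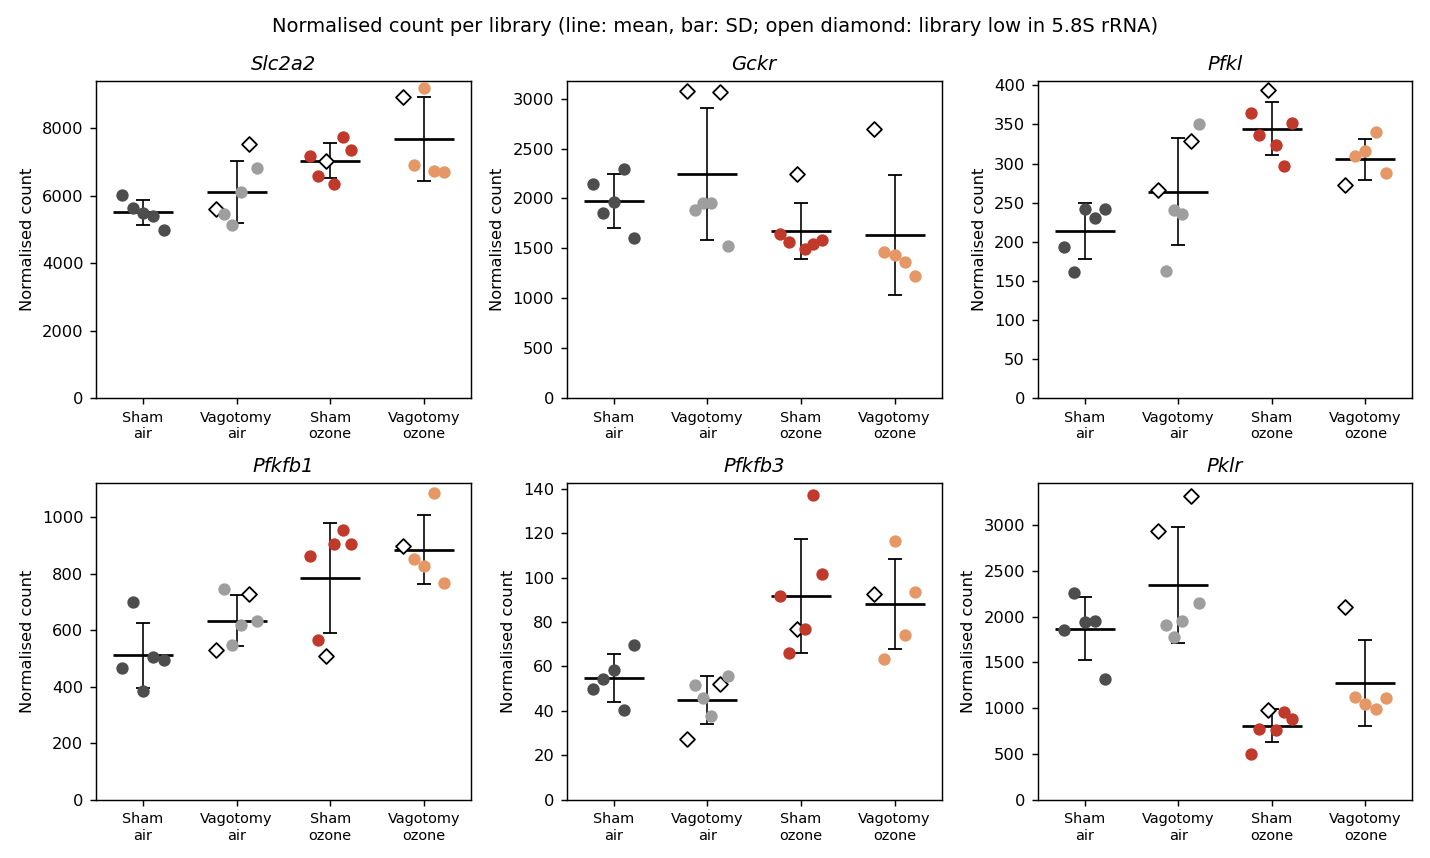
Normalised count (y axis, from 0) of each of the 6 genes in every library, by group (x axis). Lines are means and bars SDs, and open diamonds are the 4 libraries low in 5.8S ribosomal RNA. All 6 sham ozone libraries of Pklr lie below all 5 sham air libraries, and those of Pfkl and Slc2a2 lie above.

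Slc2a2 encodes GLUT2. Its normalised counts in the 5 sham air libraries were 6030, 5630, 5499, 5396 and 4983, and in sham ozone they had a lowest value of 6342, a median of 7112 and a highest of 7756. Every sham rat that breathed ozone was above every sham rat that breathed air. In vagotomised air Slc2a2 ran from 5140 through a median of 5851 to 7550, and the vagotomised ozone libraries read 8917, 6911, 9194, 6723 and 6706. Here the groups overlapped, because libraries 5 and 6 of vagotomised air reached the level of the lower ozone libraries.

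Means of Slc2a2 were 5507 ± 379 (SD, n = 5) in sham air, 6113 ± 917 (n = 6) in vagotomised air, 7046 ± 514 (n = 6) in sham ozone and 7690 ± 1253 (n = 5) in vagotomised ozone, and neighbours in this order overlapped. The ozone change was 0.35 ± 0.107 on the log2 scale (SE, limma adjusted p = 0.0152) in sham rats and 0.33 ± 0.107 (adjusted p = 0.03) in vagotomised rats. Both calls held when the 4 libraries low in ribosomal RNA were left out, at 0.35 ± 0.0977 (adjusted p = 0.00768) and 0.32 ± 0.109 (adjusted p = 0.0378). The call in sham rats was lost when the columns were rescaled to equal totals (adjusted p = 0.0682), to equal upper quartiles (0.0701) or to equal quantiles (0.119), with changes of 0.25, 0.27 and 0.21. The call in vagotomised rats was lost with equal upper quartiles (0.0847), with those groups fitted alone (0.0837), and without library 1, 2 or 3 of vagotomised air or 1 or 3 of vagotomised ozone (adjusted p from 0.0616 to 0.115).

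Gckr encodes the inhibitor that binds glucokinase and keeps it in the nucleus. The sham air libraries had 2147, 1858, 1963, 2299 and 1605 normalised counts of Gckr, and sham ozone ran from 1493 through a median of 1571 to 2243. Most sham ozone libraries sat near the lowest sham air library, and 1 of them, library 3, sat among the high ones. In vagotomised air the range was 1524 to 3074 with a median of 1950, and the vagotomised ozone libraries had 2697, 1463, 1430, 1364 and 1225. Library 1 stood far above the other vagotomised ozone libraries, and the groups overlapped through it.

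The change of Gckr with ozone was -0.24 ± 0.188 on the log2 scale (limma adjusted p = 0.368) in sham rats and -0.47 ± 0.188 (adjusted p = 0.0833) in vagotomised rats, neither past the threshold. The highest Gckr value of vagotomised air, of sham ozone and of vagotomised ozone each came from a library low in 5.8S ribosomal RNA. Across all 22 libraries, deviations of log2 Gckr from the group means ran against those of log2 5.8S with r = -0.772. Within 1 library both values share the same depth factor. Without the 4 libraries the spread of Gckr in sham ozone shrank from an SD of 282 to 55.0, and its mean was 1563, against 1974 in sham air. In vagotomised rats the means were then 1826 in air and 1370 in ozone, with no overlap. Both ozone changes of Gckr were called in that fit, at -0.33 ± 0.0926 (limma adjusted p = 0.00934) and -0.41 ± 0.104 (adjusted p = 0.00716). The change in vagotomised rats was also called with array weights (adjusted p = 0.00884), with log2 5.8S as a covariate (0.0375), and without library 6 of vagotomised air (0.035) or library 1 of vagotomised ozone (-0.66, adjusted p = 0.00576).

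**Figure D2:**
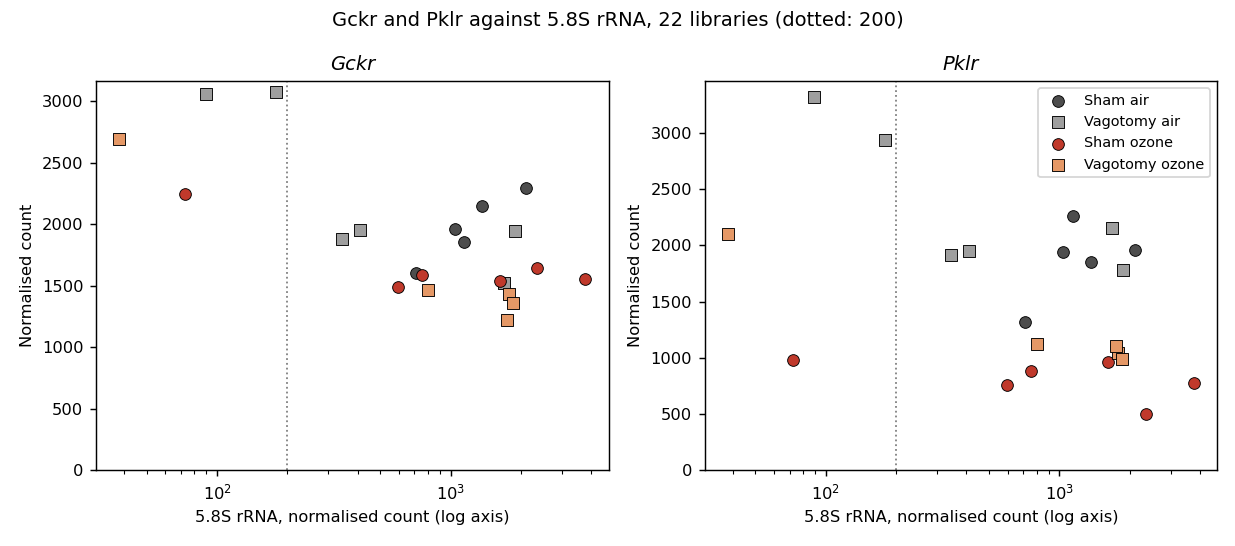
Normalised counts of Gckr and Pklr (y axes, from 0) against the normalised count of 5.8S ribosomal RNA (x axis, log scale) in 22 libraries, with groups by symbol and colour and a dotted line at 200. The libraries left of the line have the highest Gckr of their groups, from 2243 to 3074.

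Pfkl encodes the liver subunit of phosphofructokinase, the enzyme of the committed step. Its normalised counts were 192.7, 161.6, 241.6, 230.7 and 242.2 in sham air, and in sham ozone the lowest was 297, the median 344 and the highest 394. No sham ozone library came down to the sham air range. Vagotomised air spread from 163 through a median of 254 to 351, while the vagotomised ozone libraries lay together at 272.7, 310.1, 316.4, 340.6 and 287.4. The vagotomised ozone values lay wholly inside the range of their air controls.

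Mean Pfkl was 214 ± 35.5 (SD, n = 5) in sham air, 264 ± 68.3 (n = 6) in vagotomised air, 305 ± 26.3 (n = 5) in vagotomised ozone and 345 ± 33.6 (n = 6) in sham ozone, and each neighbour in this order overlapped the next. The rise in sham rats was 0.70 ± 0.152 on the log2 scale (limma adjusted p = 0.00136) and kept its call in each alternative fit, with changes from 0.59 to 0.70 over 15 settings and from 0.60 to 0.75 with each library left out in turn. In vagotomised rats the value was 0.25 ± 0.152 (adjusted p = 0.272), called only with array weights (0.36, adjusted p = 0.0406). The difference of these changes, vagotomised minus sham, was -0.45 with a 95% interval from -0.89 to -0.0060. Its unadjusted p was 0.0472 and its limma adjusted p 0.539, so a difference was not established. With the 4 libraries low in ribosomal RNA left out, it was -0.27, with an interval from -0.74 to 0.21 that took in both signs. The ozone changes of Pfkl were then 0.66 ± 0.152 (limma adjusted p = 0.00212) in sham rats and 0.39 ± 0.17 (adjusted p = 0.106) in vagotomised rats.

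Pfkfb1 and Pfkfb3 encode bifunctional enzymes that make and degrade fructose 2,6-bisphosphate. The product of Pfkfb1 is the classical liver enzyme, which glucagon signalling switches towards degradation, and that of Pfkfb3 is an inducible form in which synthesis prevails. The promoter of Pfkfb3 is shown because the gene rose in both sets of rats and holds the sequence bound by E-box factors such as MLX, MYC, USF and HIF. The window runs from 250 bases before to 50 bases after the gene start at chr17:71944683-71944982 of GRCr8, plus strand, from RefSeq, 5′ to 3′, with the E-box CACGTG in capitals from position -42.
Pfkfb3: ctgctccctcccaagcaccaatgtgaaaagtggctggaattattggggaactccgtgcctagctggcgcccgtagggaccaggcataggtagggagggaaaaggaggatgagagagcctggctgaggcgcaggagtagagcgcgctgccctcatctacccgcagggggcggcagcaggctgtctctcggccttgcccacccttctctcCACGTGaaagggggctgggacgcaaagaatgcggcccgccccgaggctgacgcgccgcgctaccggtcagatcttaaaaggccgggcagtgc
This E-box, which reads alike on both strands, was found in 6.42% of 33469 rat promoter windows of that length, and among the 6 genes only in Pfkfb3. The match is a description of the letters and no evidence of binding.

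Pfkfb3 normalised counts were 49.96, 54.53, 58.54, 40.53 and 69.79 in sham air, and ran from 66.3 through 84.3 to 137 in sham ozone. The 2 groups touched at 1 point only, where the highest air library passed the lowest ozone library. In vagotomised air the gene ran from 27.2 through 48.6 to 55.9, and vagotomised ozone read 92.5, 63.36, 116.3, 74.27 and 93.31. Those ranges were apart. Pfkfb3 changed by 0.72 ± 0.204 (limma adjusted p = 0.0107) in sham rats and by 0.96 ± 0.204 (adjusted p = 0.00158) in vagotomised rats, on the log2 scale. Both calls of Pfkfb3 held in each of the 15 alternative settings and with each library left out. Leaving out the 4 libraries low in ribosomal RNA gave 0.76 ± 0.199 (limma adjusted p = 0.0056) in sham rats and 0.83 ± 0.223 (adjusted p = 0.0105) in vagotomised rats. Group means were 45.0 ± 10.8 (SD, n = 6) in vagotomised air, 54.7 ± 10.8 (n = 5) in sham air, 87.9 ± 20.3 (n = 5) in vagotomised ozone and 91.7 ± 25.5 (n = 6) in sham ozone. The fewest reads behind a Pfkfb3 value were 32.

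Pfkfb1 normalised counts in sham air were 466.6, 698.9, 384.7, 505.7 and 495.7, and those of sham ozone ran from 509 through a median of 884 to 955. In sham ozone 4 libraries were above all sham air libraries and the other 2, library 3 at 508.5 and library 2 at 565.5, lay among them. Vagotomised air ran from 531 through 624 to 746, and vagotomised ozone read 897.3, 850.6, 825.6, 1086 and 765.2. The lowest ozone library of these was just above the highest air library. Mean Pfkfb1 was 510 ± 116 (SD, n = 5) in sham air, 634 ± 89.5 (n = 6) in vagotomised air, 783 ± 194 (n = 6) in sham ozone and 885 ± 122 (n = 5) in vagotomised ozone, and neighbours in this order overlapped.

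The ozone change of Pfkfb1 was 0.60 ± 0.165 (limma adjusted p = 0.00835) in sham rats and 0.48 ± 0.165 (adjusted p = 0.0397) in vagotomised rats. Without the 4 libraries low in 5.8S it was 0.72 ± 0.152 (adjusted p = 0.00106) and 0.47 ± 0.17 (adjusted p = 0.0533), so the second call was lost. That call was also lost with equal column totals (0.0547), equal upper quartiles (0.0687) and equal quantiles (0.0556), and without library 1, 3, 4 or 6 of vagotomised air or library 1, 2, 3 or 4 of vagotomised ozone (adjusted p from 0.0564 to 0.112).

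Pklr is shown with its promoter because it had the largest ozone change of the 6 genes in sham rats and a well-studied control region. The window lies at chr2:176841014-176841313 of GRCr8, plus strand, from RefSeq, and is printed 5′ to 3′ with 2 matches in capitals. From the left these are a carbohydrate response element pair from position -168, the kind of site that ChREBP and MLX bind, and a TATA box from position -29.
Pklr: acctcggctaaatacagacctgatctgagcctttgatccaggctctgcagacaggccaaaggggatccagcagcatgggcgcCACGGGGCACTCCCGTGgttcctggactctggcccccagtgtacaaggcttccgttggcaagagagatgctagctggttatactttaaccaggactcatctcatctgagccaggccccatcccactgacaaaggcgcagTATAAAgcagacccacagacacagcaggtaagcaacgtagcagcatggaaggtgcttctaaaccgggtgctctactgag
The pair was searched as CACGNG and CNCGTG separated by any 5 bases and was found in 0.0329% of the 33469 windows, and TATAAA in 14.2%. Each was searched on both strands, and Pklr was the only one of the 6 genes to hold either of them. Also searched were the glucocorticoid receptor palindrome, GNACA and TGTNC separated by 3 bases, and the FOXO core GTAAACA, which occur in 0.439% and 3.78% of windows. Neither string occurs in these windows of the 6 genes, which says only that the letters are not in these 300 bases.

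The normalised counts of Pklr in sham air were 1854, 2262, 1946, 1958 and 1315. In sham ozone the lowest was 500, the median 831 and the highest 979, so all 6 ozone libraries were under the lowest air library. Vagotomised air ran from 1779 through 2052 to 3322, and vagotomised ozone read 2105, 1126, 1047, 991.3 and 1107. Of the latter, 4 libraries were under all vagotomised air libraries and library 1, low in 5.8S, was among them.

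Mean Pklr was 809 ± 177 (SD, n = 6) in sham ozone, 1275 ± 467 (n = 5) in vagotomised ozone, 1867 ± 345 (n = 5) in sham air and 2342 ± 633 (n = 6) in vagotomised air. Neighbours in this order overlapped, apart from the 2 ozone groups. The change with ozone was -1.22 ± 0.204 on the log2 scale (limma adjusted p = 0.000105) in sham rats and -0.90 ± 0.204 (adjusted p = 0.00285) in vagotomised rats. Both calls held in all 15 settings, with ranges from -1.32 to -1.17 and from -0.96 to -0.80, and with each library left out. Pklr deviations from the group means also ran against log2 5.8S, with r = -0.675 over 22 libraries. Without the 4 libraries its changes were -1.28 ± 0.146 (adjusted p = 1.85e-06) and -0.87 ± 0.163 (adjusted p = 0.000709). Pklr and Gckr deviated together across the 22 libraries (r = 0.74 within groups), and both share the low 5.8S libraries.

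Vagotomy by itself was compared with sham surgery in each exposure, on libraries that also serve the ozone comparisons. In air none of the 6 genes was called, and limma called 0 of the 12424 tested genes (0%), as did edgeR and DESeq2, with 387 at an unadjusted p under 0.05. The values of Pfkfb1, Pklr, Pfkl, Gckr and Slc2a2 were 0.33, 0.31, 0.28, 0.14 and 0.14 on the log2 scale and that of Pfkfb3 was -0.29, with limma adjusted p of 1 for each. Their 95% intervals included 0, and the widest reached 0.73 for Pklr. The value of Gckr turned to -0.11 without the 4 libraries low in 5.8S and to -0.063 with log2 5.8S as a covariate.

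In ozone, all vagotomised libraries had more Pklr than all sham libraries, 991 at the lowest against 979 at the highest. The difference was 0.63 ± 0.204 on the log2 scale, or 1.54-fold, with an unadjusted p of 0.00542 and a limma adjusted p of 0.13, where 1.34% of all genes, 166, were called (19 to 76 genes without library 1 or 2 of sham ozone or library 2, 3, 4 or 5 of vagotomised ozone). It was 0.49 ± 0.154 (adjusted p = 0.0887) without the 4 libraries and 0.58 ± 0.156 (adjusted p = 0.045) with log2 5.8S as a covariate, so it was called only in the latter. None of the other 5 genes was called. Pfkfb1, Slc2a2 and Pfkl had values of 0.21, 0.11 and -0.17. Gckr at -0.083 and Pfkfb3 at -0.049 changed sign with equal column totals, to 0.018 and 0.051.

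Whether the ozone changes differed between vagotomised and sham rats was tested directly. Limma called 0 of the 12424 genes (0%), with 1147 at an unadjusted p under 0.05, edgeR called 0, and DESeq2 called 20, none of them among the 6. For Pklr the difference was 0.32, with a 95% interval from -0.28 to 0.92, and for Pfkfb3 it was 0.24, from -0.35 to 0.84. Gckr had -0.23 (from -0.78 to 0.32) and Pfkfb1 -0.12 (from -0.60 to 0.36). Slc2a2 had -0.026, from -0.34 to 0.29, and this value was above 0 with other scalings. The intervals are wide enough to hold differences as large as many of the ozone changes themselves.

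**Figure D3:**
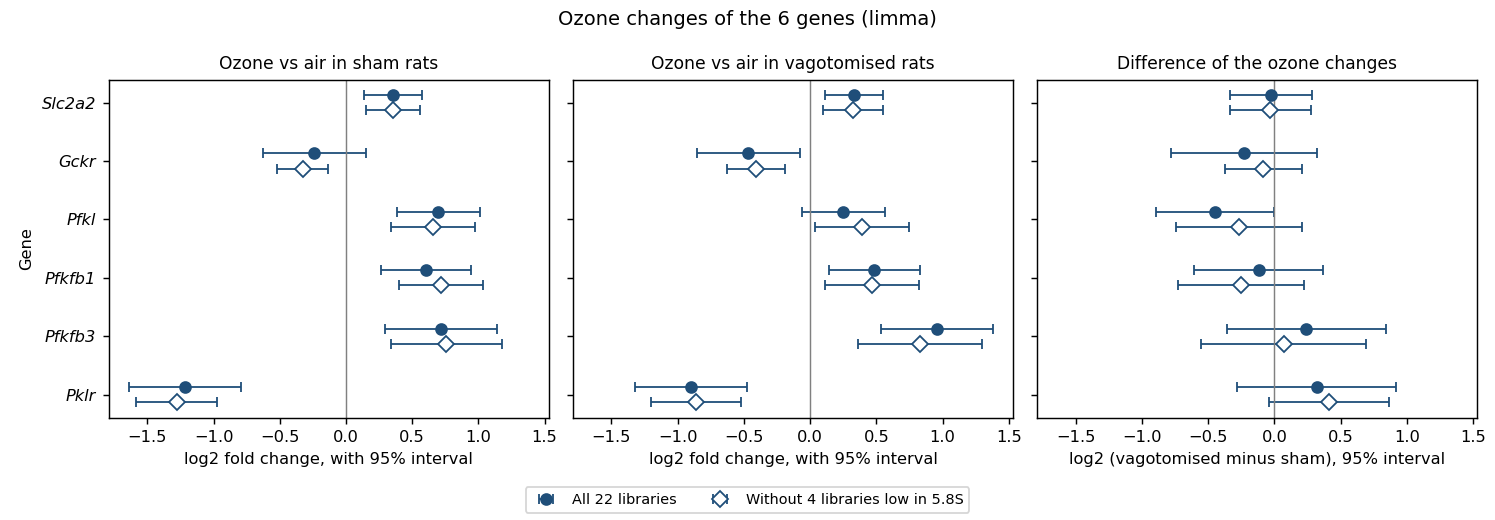
Log2 change with ozone (x axis, points with 95% intervals from limma) of the 6 genes (y axis) in sham rats, in vagotomised rats, and the difference of these changes. Filled circles use all 22 libraries and open diamonds leave out the 4 low in 5.8S. Pklr lies left of 0 in both sets of rats, and the intervals of the difference include 0 for 5 of the 6 genes with all libraries.

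The remaining enzymes of glycolysis were mostly not called. Gapdh is among them but weakly measured, with group means of 7.98 to 16.4 normalised counts and as few as 0 reads in sham ozone. Over all genes 14.6% were called higher and 13.8% lower in sham rats, and 11.4% and 9.63% in vagotomised rats. The median change of 20 other glycolytic enzymes tested was 0.073 in sham ozone, against 0.0081 for all genes. Among these 20, 4 rose, against 14.6% of all genes, and 1 fell, against 13.8%. They include Minpp1, an inositol polyphosphate phosphatase that also acts on bisphosphoglycerate (0.76 ± 0.0888, limma adjusted p = 1.37e-06), and Pfkfb2, a further bifunctional enzyme (0.64 ± 0.13, adjusted p = 0.000767). Pgam1, phosphoglycerate mutase, also rose (0.36 ± 0.0821, adjusted p = 0.00192), and Pfkm, the muscle subunit of phosphofructokinase, fell (-0.74 ± 0.194, adjusted p = 0.0059). Pfkl and Pfkm thus moved in opposite directions in the same sham rats. In vagotomised ozone 5 of 20 rose and 0 fell, with a median of 0.24 against -0.0084 for all genes. Minpp1, Pgam1 and Pfkfb2 rose there by 0.60, 0.45 and 0.57, and Eno1, an enolase, by 0.38 (adjusted p = 0.032), a call lost with equal upper quartiles (adjusted p = 0.0778) and without any 1 of 5 libraries (up to 0.0885).

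Among 11 genes of glucose uptake, phosphorylation and release, 4 rose and 2 fell in sham ozone, where 14.6% of all genes rose and 13.8% fell. G6pc, the phosphatase that frees glucose for export and so opposes glucokinase, rose from 14515 ± 3243 (SD, n = 5) to 31565 ± 11905 (n = 6) normalised counts, a change of 1.05 ± 0.245 (limma adjusted p = 0.00242). Slc37a4, which carries glucose 6-phosphate to that enzyme, rose by 0.54 ± 0.136 (adjusted p = 0.00443). The transporter gene Slc2a1 rose by 1.01 ± 0.222 (adjusted p = 0.00148), and the hexokinase gene Hk3 fell by 1.31 on the log2 scale (adjusted p = 0.00063). Hk3 was low in counts, with means of 49.5 in sham air and 20.6 in sham ozone, and as few as 11 reads in the latter. In vagotomised ozone 2 of the 11 rose, Slc37a4 (0.58 ± 0.136) and the urate and sugar transporter Slc2a9 (0.72 ± 0.15), and 3 fell, among them Hk1 (-0.55 ± 0.146) and Hk2 (-0.996 ± 0.312). Slc2a9 and Hk2 were also called in sham rats, at 0.52 ± 0.15 (limma adjusted p = 0.012) and -0.92 ± 0.312 (adjusted p = 0.0293). Hk2 had mean normalised counts of 16.8 in sham ozone and 14.7 in vagotomised ozone, with as few as 6 and 7 reads. The call of Hk2 in vagotomised rats was lost without the 4 libraries (adjusted p = 0.0825) and in both edgeR fits (0.0597 and 0.066). It was also lost without library 6 of vagotomised air or library 1, 2 or 3 of vagotomised ozone (up to 0.0913). Without the 4 libraries 2 of the 11 rose and 1 fell. In vagotomised rats 11.4% of all genes were called higher and 9.63% lower. The list's median was -0.073 in sham and 0.30 in vagotomised rats, against 0.0081 and -0.0084 for all genes.

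Of 6 genes of the opposing gluconeogenic steps, 2 rose and 0 fell in sham ozone, against 14.6% and 13.8% of all genes. The 2 were G6pc and Slc37a4, and the median of the list was 0.26, against 0.0081 for all genes. Fbp1, which reverses the step of phosphofructokinase, had 0.41 ± 0.17 (limma adjusted p = 0.0774). Pck1, the cytosolic carboxykinase in the bypass of pyruvate kinase, had 0.12, the mitochondrial carboxykinase Pck2 -0.17 and pyruvate carboxylase Pc -0.07. Fbp1 was called without the 4 libraries (0.29, adjusted p = 0.0184). In vagotomised ozone Slc37a4 rose and Pck1 fell (-0.66 ± 0.187, adjusted p = 0.0138), and G6pc was not called (0.32 ± 0.245, adjusted p = 0.402). Of all genes 11.4% rose there and 9.63% fell. The median over the 6 genes was -0.0018, against -0.0084 for all genes.

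**Figure D4:**
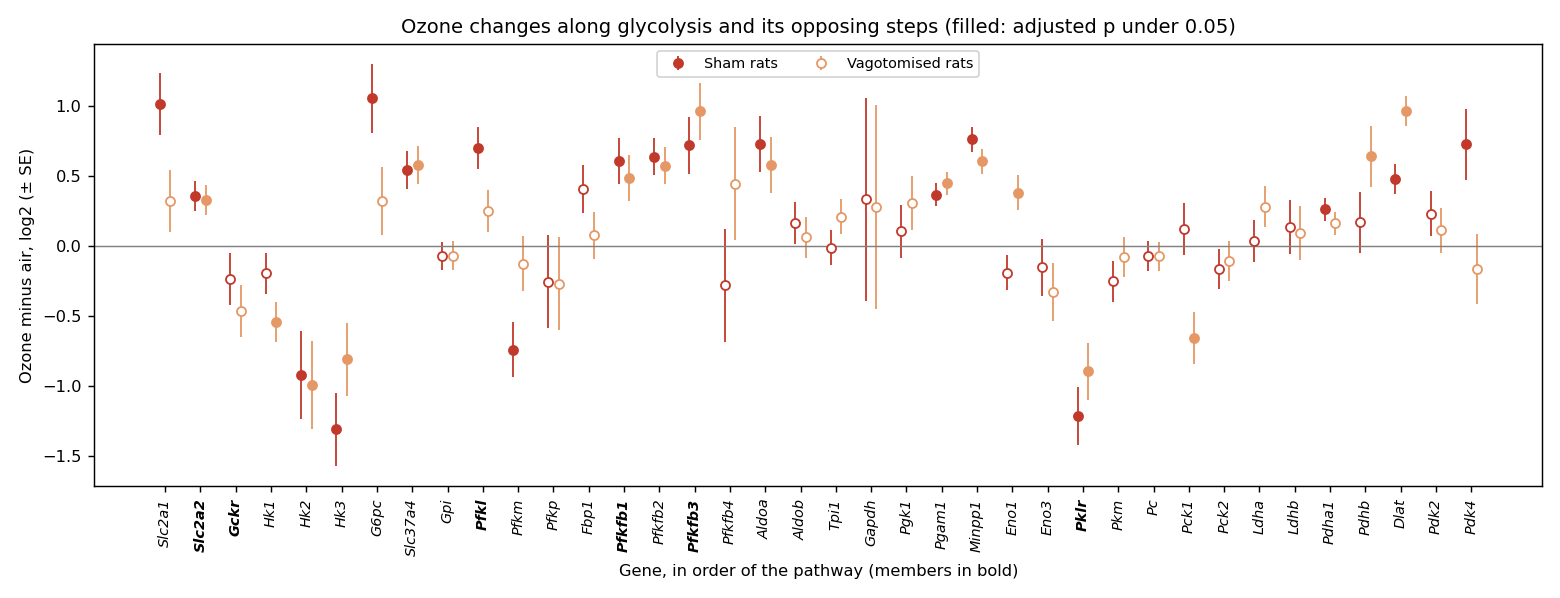
Log2 change with ozone, ± SE (y axis), of genes in the order of the glycolytic pathway (x axis, the 6 genes in bold) in sham rats (red) and vagotomised rats (orange); filled points passed the adjusted p of 0.05. Filled rises in sham rats include G6pc, Slc37a4, Pfkfb1, Pfkfb2 and Pfkfb3, and Pklr is the lowest filled point of the steps after Hk3. The Gapdh row holds few reads.

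Pyruvate kinase and the carboxykinase run against each other, so the ratio of Pklr to Pck1 was taken within each library, where the depth factor cancels. It is not scaled for transcript length and only its differences between groups are read. The sham air libraries had log2 ratios of -4.85, -4.87, -5.06, -5.13 and -5.88, and sham ozone ran from -7.77 to -5.97. All sham ozone libraries were lower. The vagotomised ozone libraries had -5.27, -5.36, -5.54, -5.75 and -5.10, and vagotomised air ran from -5.36 to -4.82. Means were -5.16 ± 0.421 (SD, n = 5) in sham air, -6.49 ± 0.667 (n = 6) in sham ozone, -5.17 ± 0.190 (n = 6) in vagotomised air and -5.40 ± 0.249 (n = 5) in vagotomised ozone.

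In sham rats the ratio of Pklr to Pck1 differed by -1.34 with ozone, or 0.396-fold, with an exact permutation p of 0.00433 (two-sided, adjusted p = 0.026 over 12 tests), the smallest that 5 against 6 libraries allow. In vagotomised rats it differed by -0.24 (exact permutation p = 0.113, adjusted p = 0.271). Under ozone the ratio was 2.13-fold higher in vagotomised than in sham rats, without overlap (exact permutation p = 0.00433, adjusted p = 0.026), and in air the surgery groups differed by -0.0090 (exact p = 1). Whether the ozone changes of the ratio differed was not tested. Without the 4 libraries the differences were -1.43 and 1.15, with adjusted exact p of 0.0953 and 0.0954. The groups still did not overlap, so each exact p was the smallest that these fewer libraries allow.

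The ratio of Pfkfb3 to Pfkfb1 and that of Pfkl to Fbp1 passed in no comparison. For Pfkfb3 to Pfkfb1 the largest difference was -0.62 for vagotomised against sham air, with an exact permutation p of 0.0303 and an adjusted p of 0.121. With ozone it differed by 0.11 (adjusted p = 0.751) in sham and 0.48 (adjusted p = 0.208) in vagotomised rats. Pfkl to Fbp1 differed by 0.29 and 0.18 with ozone, with adjusted exact p of 0.354 and 0.63.

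**Figure D5:**
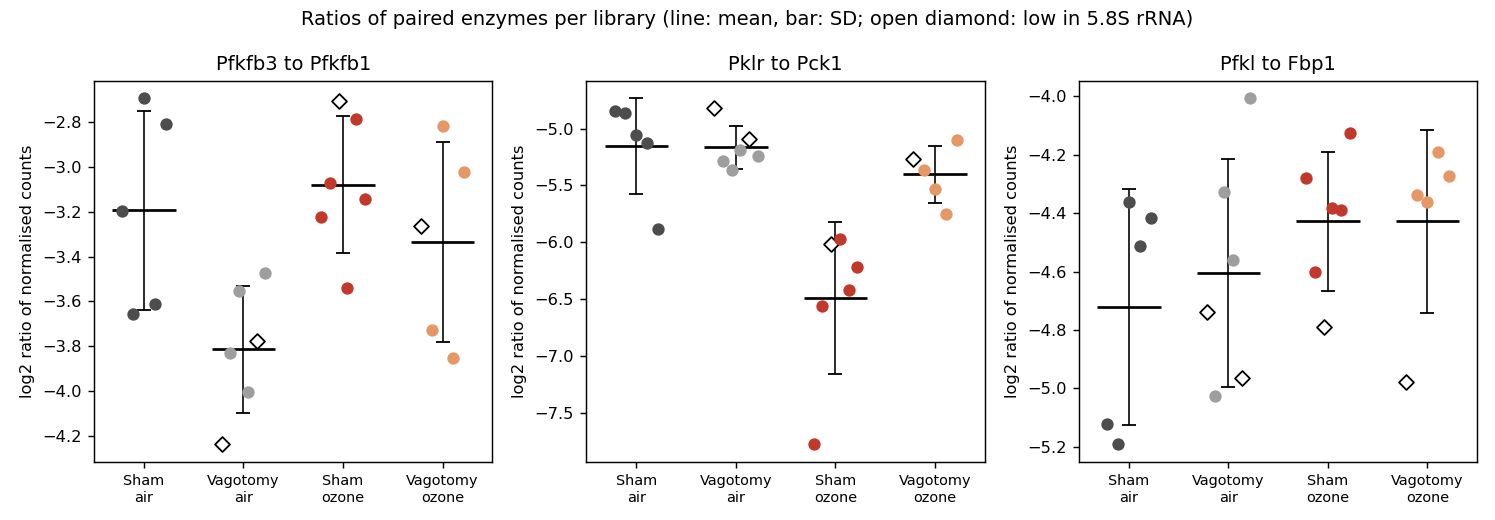
Log2 ratio of normalised counts (y axes, not from 0) within each library for 3 pairs of genes, by group (x axis), with mean and SD; open diamonds are the libraries low in 5.8S. Sham ozone lies apart below the other groups for Pklr to Pck1, with 1 library at -7.77.

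Past pyruvate, 3 of 16 genes rose with ozone in sham rats, near the 14.6% of all genes, and 4 of 16 in vagotomised rats, against 11.4%, and 0 fell in either. Dlat, a core subunit of the pyruvate dehydrogenase complex, was called in both (0.48 ± 0.107, limma adjusted p = 0.00174, and 0.96 ± 0.107, adjusted p = 1.35e-06), and it was higher in vagotomised than in sham rats under ozone (0.46, adjusted p = 0.0382). Pdha1, another subunit, and Pdk4, the kinase that switches the complex off, rose in sham rats by 0.26 (adjusted p = 0.019) and 0.72 (adjusted p = 0.0345). Both lost the call with equal column totals (0.135 and 0.0741), equal upper quartiles (0.0806 and 0.0606) and equal quantiles (0.0526 and 0.0644). Pdha1 was also lost with those groups fitted alone (0.0634), and Pdk4 with array weights (0.0534). Pdha1 also lost it without library 1 of sham ozone (0.0526), and Pdk4 without library 1, 2 or 4 of sham air or 2 or 5 of sham ozone (up to 0.119). In vagotomised rats Pdhx, Pdhb and the pyruvate carrier gene Mpc2 rose by 0.39, 0.64 and 0.29, and each of these calls was lost with equal upper quartiles (adjusted p = 0.0637, 0.0509 and 0.123) and without any 1 of 2, 7 and 9 libraries (up to 0.0683, 0.114 and 0.0917). Pdhb and Mpc2 were also lost with equal column totals (0.0511 and 0.0767), and Mpc2 with equal quantiles (0.125). Mpc2 was lost as well without the 4 libraries low in 5.8S (0.27, adjusted p = 0.092). The pentose phosphate branch, which draws glucose 6-phosphate away from glycolysis, included the isomerase and epimerase genes Rpia (-0.73 ± 0.118, adjusted p = 7.1e-05) and Rpe (-0.37 ± 0.102, adjusted p = 0.00862), which fell in sham ozone.

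Of 23 transcription factors and cofactors known to act on glycolytic genes, 8 rose and 3 fell in sham ozone, and 4 rose and 3 fell in vagotomised ozone. Over all genes the shares were 14.6% higher and 13.8% lower in sham rats, and 11.4% and 9.63% in vagotomised rats. Mlx, the partner of ChREBP, rose by 0.80 ± 0.152 and 0.81 ± 0.152 in sham and vagotomised rats (limma adjusted p = 0.00037 and 0.000485). Mlxipl, the ChREBP gene, fell in vagotomised ozone from 847 ± 105 (SD, n = 6) to 476 ± 99.2 (n = 5) normalised counts (-0.85 ± 0.157, adjusted p = 0.00044). In sham rats Mlxipl was 626 ± 78.8 (n = 5) in air and 539 ± 138 (n = 6) in ozone and was not called. Ppargc1a, a coactivator of fasting metabolism, rose by 2.71 ± 0.32 in sham rats, and Hnf4a by 0.69 ± 0.111. The pioneer factor gene Foxa1 fell in vagotomised rats (-0.94 ± 0.177, adjusted p = 0.000532). Under ozone Hnf4a was lower in vagotomised than in sham rats (-0.55, adjusted p = 0.0199), as was Usf2 (-0.47, adjusted p = 0.0456).

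Of 20 targets of ChREBP outside glycolysis, 8 fell and 2 rose with ozone in sham rats, against 13.8% and 14.6% of all genes, with a median of -0.52 against 0.0081 for all genes. Mid1ip1 (-1.96 ± 0.271, limma adjusted p = 1.17e-05) and Acly (-1.28 ± 0.181, adjusted p = 1.52e-05) serve fatty acid synthesis, Tkfc (-1.18 ± 0.188) phosphorylates glyceraldehyde from fructose, and Me1 (-0.76 ± 0.174) supplies NADPH. In vagotomised rats 3 of 20 fell and 1 rose, against 9.63% and 11.4%, with a median of -0.25. Acly and Bhlhe40, a clock-linked repressor, fell there by 0.84 and 1.17 on the log2 scale, and Gpd1, which links glycolysis to glycerol 3-phosphate, rose by 0.63. The call of Bhlhe40 was lost without library 3 or 5 of vagotomised air or library 2, 3 or 4 of vagotomised ozone (adjusted p from 0.0504 to 0.072). Mid1ip1 fell by 0.86 (adjusted p = 0.0263), a call lost without the 4 libraries (adjusted p = 0.138) and without library 5 of vagotomised air or library 2 or 3 of vagotomised ozone (up to 0.106). Tkfc was higher in vagotomised than in sham ozone (0.98, adjusted p = 0.0161), and no gene of the list differed between the ozone changes after adjustment. The calls between the surgeries under ozone, those of Slc2a1 (-0.94, adjusted p = 0.0385), Dlat, Hnf4a, Usf2 and Tkfc, were all lost in a fit of those groups alone (adjusted p from 0.105 to 0.145). Each was also lost without some single libraries, Tkfc without library 1 or 2 of sham ozone (up to 0.0526) and Usf2 without any 1 of 13 libraries (up to 0.118). Slc2a1, Dlat and Hnf4a lost it without any 1 of 7, 8 and 4 libraries (up to 0.134, 0.091 and 0.071). Usf2 was also lost without the 4 libraries low in 5.8S (-0.40, adjusted p = 0.0562).

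The genes whose log2 values followed each of the 6 most closely were sought over 22 libraries, among the 9647 tested genes whose mean was 50 or more. These are descriptions, since the libraries share the exposure. Pklr was nearest to Nqo2, a quinone reductase, with r = 0.915, and the deviations from group means gave 0.727. Pfkfb1 was nearest to Cps1, the entry enzyme of the urea cycle, with r = 0.879 (0.791 within groups), and Pfkfb3 to Ceacam1, which takes part in hepatic insulin clearance, with r = 0.887 (0.691 within groups). Slc2a2 was nearest to Plekha6 (0.885, and 0.74 within groups) and had Adk, adenosine kinase, among its nearest with 0.85. Pfkl was nearest to an unnamed locus, LOC103690317 (0.891), followed by the cell cycle phosphatase gene Cdc25a (0.889). Gckr was nearest to Tmem218 (0.896, and 0.90 within groups), and so was about as alike within groups as over all libraries.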

How the data were processed

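RNA was sequenced from liver of 22 rats in 4 groups, with 5 to 6 rats per group and no second library of a rat, per the labels. The deposited signal is a normalised read count, made by the authors in which each library's counts are scaled by its own size factor. STAR, Partek, DESeq and DESeq2 and build rn6 are named in the record, per the submitters' processing notes. Versions, annotation, strand setting and the treatment of reads shared by related genes are not given in the sources used here. All values (100%) were whole multiples of a library's step within 0.001, which gave back the reads.

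Values were analysed as log2(normalised count + 1) with limma 3.58.1 in R 4.3.3, in 1 fit of the 4 group means with an intensity trend, for 12424 genes (83.0%) with a mean of at least 10. Every test was two-sided, p-values were adjusted by the Benjamini-Hochberg method over all tested genes, and a call is an adjusted p under 0.05. Ratios were compared with exact permutation tests. Alternatives were other pseudocounts, filters and scalings, a replicate block, array weights, only the groups compared, edgeR 4.0.16 and DESeq2 1.42.0 on recovered reads, each library left out, and no libraries low in 5.8S. A 5.8S covariate was added after seeing the data. The procedure was tested on simulated data. Libraries of a group were compared for copies, and chi-square per degree of freedom was 9.3 or more in all 50 pairs, so none was counted as a copy.

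The 6 genes, the lists and the 5.8S limit were chosen with earlier results of these data known, and the motifs after the sequences were in view. From each list up to 4 called genes with the smallest p are named per ozone comparison and up to 2 per vagotomy comparison, and all tested genes of the opposing steps. Some results of listed genes are not reported here. G6pc in vagotomised rats and Mlxipl, Slc2a9 and Hk2 in sham rats are named for comparison with the other surgery group. Promoters are from RefSeq (GRCr8), matched by symbol for 6 of 6 genes. That annotation holds 12462 of the 14971 symbols. Figures used Python 3.11.15 and matplotlib 3.10.9.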

Additional observations from a re-analysis of the deposited data

Results flagged for a closer look

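A library stood apart from the rest of its group in 6 of 36 combinations of group and measure, by Dixon's test, which flags about 1 in 20 groups by chance. Of the 6, 4 come from libraries low in 5.8S ribosomal RNA.

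Gckr was 2243 normalised counts in library 3 of sham ozone, with the next highest at 1642, and 2697 in library 1 of vagotomised ozone, with the next at 1463. Pklr was 2105 in that library, with the next at 1126. The log2 ratio of Pfkl to Fbp1 in the same library was -4.98, with the nearest at -4.36. The log2 ratio of Pklr to Pck1 was -5.88 in library 5 of sham air, with the nearest at -5.13, and -7.77 in library 1 of sham ozone, with the nearest at -6.56, and neither library is low in 5.8S.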

How the results depend on the processing

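The calls of Pklr and Pfkfb3 with ozone in both sets of rats, and of Pfkl and Pfkfb1 in sham rats, held in every setting run. With equal upper quartiles 2 of the 6 genes were called in vagotomised rats, and with log2 5.8S as a covariate 1 was called between the surgeries in ozone. Leaving out 1 library at a time gave 2 to 4 calls in vagotomised rats, with 2 without library 1 or 3 of vagotomised air or library 3 of vagotomised ozone. The replicate block gave 5, 5, 0, 0 and 0 called genes against 5, 4, 0, 0 and 0, adding Gckr in vagotomised rats (-0.52, limma adjusted p = 0.0437). It gave 3306 and 2490 calls over all genes, against 3526 and 2619. Libraries with the same number deviated with r from -0.495 to 0.608 over 31 pairs. Pairs with different numbers were not summarised, so this range cannot show whether the numbers mark a pairing. Here the numbers only name libraries. Under the replicate block Pfkfb3 between surgeries in ozone was 0.0037, the Slc2a2 difference of ozone changes 0.022, and Pdk4 in sham rats (adjusted p = 0.0554), Pdhx (0.0542) and Mid1ip1 (0.0577) in vagotomised rats and Slc2a1 (0.0626), Dlat (0.0628) and Usf2 (0.0513) between surgeries in ozone lost their calls. Between surgeries in ozone, calls over all genes were 166, and 93 with quantile normalisation, 14 with only the groups compared, 19 to 76 without any 1 of 6 libraries (1 or 2 of sham ozone, 2, 3, 4 or 5 of vagotomised ozone), 270 with array weights, 272 without the 4 libraries and 322 with the covariate. DESeq2 called 2.95% of the 12424 genes there, against 1.34% with limma. Array weights gave 3962 calls in vagotomised rats, and 13 for the difference, where DESeq2 gave 20. The share of calls that were higher moved from 51.3% to 33.9% (equal column totals) and 35.5% (equal upper quartiles) in sham rats, from 54.3% to 42.3% (equal upper quartiles) in vagotomised rats, and from 60.2% to 85.5% (totals) and 72.0% (quantile) between surgeries in ozone.

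Values that changed sign were called with neither sign. They were Pc in vagotomised rats (0.019, array weights), Gckr between surgeries in air (-0.11 without the 4 libraries, -0.063 with the covariate), Gckr and Pfkfb3 between surgeries in ozone (0.018 and 0.051, equal totals), the Slc2a2 difference (0.058 with equal totals, 0.0018 with upper quartiles, 0.14 with quantiles, 0.0053 with the covariate) and the ratio of Pfkl to Fbp1 in ozone (-7.9e-05, pseudocount of 0.5). With 1 library left out, ranges that crossed 0 were -0.0060 to 0.23 for Pck1 in sham rats, -0.025 to 0.22 for Fbp1 in vagotomised rats, -0.28 to 0.0050 for Gckr and -0.16 to 0.074 for Pfkfb3 between surgeries in ozone, and -0.094 to 0.038 for the Slc2a2 difference. Among log2 ratios they were -0.0013 to 0.24 for Pfkfb3 to Pfkfb1 in sham rats, -0.19 to 0.068 for Pklr to Pck1 in air, and -0.0024 to 0.21 and -0.072 to 0.14 for Pfkl to Fbp1 in air and in ozone. Pklr to Pck1 ran from -1.52 to -1.08 in sham rats and from 0.83 to 1.19 between surgeries in ozone, with adjusted exact p from 0.026 to 0.0571, and without the 4 libraries it was -1.43 and 1.15. Fewer libraries raise the smallest p the exact test can give. The cause of the other shifts was not tested.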
